A study of Mus musculus with 12 samples.

Results

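The 9 genes described here encode transcription factors that act in hematopoietic stem cells (HSCs): Mecom, Hlf, Meis1, Gata2, Tal1, Runx1, Gfi1, Gfi1b and Hoxa9. They were taken by name, through their Ensembl mouse identifiers, from a table of read counts for 53465 genes, and all 9 were found. Bulk RNA had been sequenced from mouse bone marrow HSCs after 2 days in Stemline II, to which SCF (100 ng/ml) and Flt3 (2 ng/ml) had been added, with or without nicotinamide riboside (NR), a precursor from which cells make NAD. The 4 groups held 3 samples each: LT-HSCs (long-term HSCs) and ST-HSCs (short-term HSCs), each as control and with 1 mM NR that was renewed after 24 h. Both populations had been sorted as lineage-negative cells with Kit, Sca1 and CD150 on the surface and without CD48, and they differed in CD34, which LT-HSCs lacked and ST-HSCs carried. The labels used here name no strain, age or genotype of the mice, and they leave unsaid if the 3 samples of a group were independent mice or cultures. Each p-value is thus a statement about the spread among these samples, part or all of which may be technical.

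HSCs can self-renew or give rise to all blood lineages, and a small set of DNA-binding proteins is needed to form and keep them. Gata2 (a GATA zinc finger factor), Tal1 (a basic helix-loop-helix factor) and Runx1 (a runt domain factor) bind many shared regulatory regions with cofactors such as Lmo2, Ldb1, Lyl1, Erg and Fli1. Hoxa9 and Meis1 are homeodomain proteins that bind DNA together and with Pbx proteins. Gfi1 and Gfi1b are closely related zinc finger repressors that recruit the demethylase Kdm1a and its partner Rcor1. Mecom gives rise to the zinc finger protein EVI1, and Hlf encodes a PAR-type leucine zipper factor. Both are known as marks of the most primitive stem cells.

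In GENCODE M21 (GRCm38) Mecom lies on chromosome 3 from 29951296 to 30548008 and Hlf on chromosome 11 from 90336536 to 90390895. Gata2 lies on chromosome 6 from 88193891 to 88207032, and Gfi1b on chromosome 2 from 28609450 to 28621982. The 250 bases before the annotated start of these 4 genes are shown, because the measured differences among the 9 factors lay mainly in them. The sequences are from RefSeq (GRCm38.p6), read 5′ to 3′ on the strand of the gene. The Mecom window is chr3:30509760-30510009 (minus strand), which lies inside the gene as GENCODE draws it, since longer transcripts start further upstream. The others are chr11:90390918-90391167 for Hlf (minus strand), chr6:88193641-88193890 for Gata2 (plus strand) and chr2:28621983-28622232 for Gfi1b (minus strand). Capitals mark matches to short motifs known for these factor families.
Mecom: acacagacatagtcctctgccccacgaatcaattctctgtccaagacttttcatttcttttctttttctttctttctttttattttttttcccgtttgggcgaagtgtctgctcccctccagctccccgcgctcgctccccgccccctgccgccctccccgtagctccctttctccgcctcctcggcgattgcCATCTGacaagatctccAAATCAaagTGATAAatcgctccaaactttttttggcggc
Hlf: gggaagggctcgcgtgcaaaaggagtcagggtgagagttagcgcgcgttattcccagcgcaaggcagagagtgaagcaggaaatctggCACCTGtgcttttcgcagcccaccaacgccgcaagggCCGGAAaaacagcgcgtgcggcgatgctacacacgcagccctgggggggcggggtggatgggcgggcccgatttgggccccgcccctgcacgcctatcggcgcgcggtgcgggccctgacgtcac
Gata2: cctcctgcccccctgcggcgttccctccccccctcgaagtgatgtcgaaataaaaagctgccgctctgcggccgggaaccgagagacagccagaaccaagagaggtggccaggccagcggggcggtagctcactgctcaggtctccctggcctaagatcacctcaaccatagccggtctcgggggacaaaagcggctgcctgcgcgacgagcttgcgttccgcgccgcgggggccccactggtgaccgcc
Gfi1b: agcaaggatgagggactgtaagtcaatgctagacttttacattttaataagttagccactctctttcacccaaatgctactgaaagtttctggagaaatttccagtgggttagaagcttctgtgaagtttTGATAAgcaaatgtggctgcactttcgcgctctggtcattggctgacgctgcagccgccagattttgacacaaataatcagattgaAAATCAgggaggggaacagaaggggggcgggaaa

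The letters searched, on both strands, were AGATAA and TGATAA for GATA factors, TGTGGT for Runx1, CAGGTG and CAGATG for E-boxes bound by Tal1 and its partners, CCGGAA and AGGAAG for ETS factors, TGATTNAT for Hox and Meis pairs and AAATCA for the Gfi core. On the opposite strand the last of these can overlap TGATTNAT. The Mecom window held TGATAA and AAATCA and, on the other strand, CAGATG. The Gfi1b window held TGATAA and AAATCA. Hlf held CCGGAA and, read on the other strand, CAGGTG, and the Gata2 window held none of the motifs. RefSeq gave 14 such windows for the 9 genes, and GATA letters stood in 3 of them (Mecom, Tal1 and Gfi1b), against 16.6% of 32851 windows of all genes. E-box letters stood in 4 of 14 (29.2% of all windows) and ETS letters in 6 of 14 (38.2%). The Gfi core stood in 2 of 14, both shown above (12.4% of all windows), the Runx1 letters in 1, that of Meis1 (14%), and TGATTNAT in 0 (2.82%). These matches are descriptions of letters, not of bound sites.

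Each library held 24.6 M to 35.5 M gene counts, and 19830 genes passed the filter on low counts, the 9 factors among them. Reads in no annotated gene made up 8.69% to 28.5%, and the third NR samples of LT-HSCs and of ST-HSCs were the only libraries above 20%. Cd34 RNA was lower in LT-HSCs than in ST-HSCs in control culture, by 1.28 on the log2 scale with SE 0.07. Of the genes of surface proteins by which both were sorted alike, Kit showed no detected difference there (0.07, edgeR adjusted p = 0.753), but others did. Cd48 was lower in LT-HSCs (-2.60, edgeR adjusted p = 0.00532), at 0.259 to 6.25 CPM over all libraries. Ly6a, for Sca1 (2.59, adjusted p = 3.45e-05), and Slamf1, for CD150 (1.05, adjusted p = 0.000437), were higher. Cdkn1a, taken as a check that NR libraries differ from control ones, ran from 30 to 30.9 CPM in control and 72.1 to 98 CPM in NR LT-HSCs, and from 19.8 to 21 CPM in control and 128 to 149 CPM in NR ST-HSCs. CPM are counts per M gene counts after scaling by trimmed mean of M-values (TMM).

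Levels were set between genes only per kilobase of exon (RPKM, with exon lengths from GENCODE M21). Gfi1b was the highest of the 9 by this measure, with a mean of 188 RPKM over the 12 libraries, followed by Gata2 (136 RPKM). Meis1 (44.5 RPKM) and Hlf (30.4 RPKM) came next, then Tal1 (18 RPKM), Runx1 (17.5 RPKM), Hoxa9 (10.3 RPKM) and Mecom (9.57 RPKM). Tal1 and Runx1 lay in the same range and cannot be ordered. The order of Hoxa9 and Mecom depended on the cell type. Mecom had the higher mean in LT-HSCs (11.7 against 10.7 RPKM in control, 13.5 against 11.4 RPKM with NR). Hoxa9 had the higher mean in ST-HSCs (9.29 against 6.16 RPKM in control, 9.91 against 6.89 RPKM with NR). Gfi1 stood apart: its mean was 0.175 RPKM, its counts per library ran from 0 to 39, and its range reached down to that of the olfactory receptor genes taken as a background (0.0035 to 0.081 RPKM). Its relative Gfi1b thus had the highest RPKM and Gfi1 the lowest of the set in these cells.

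**Figure D1:**
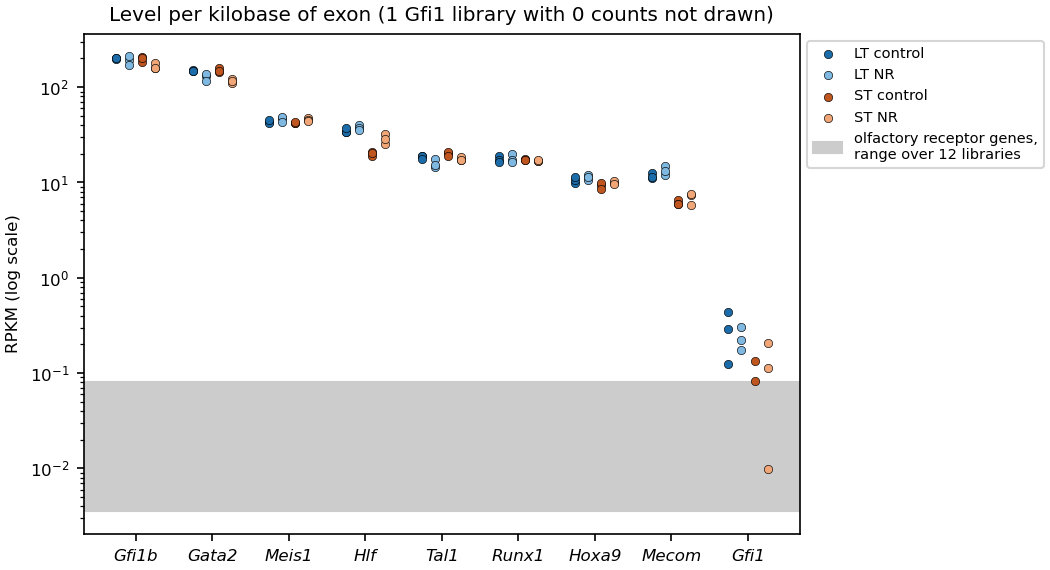
RPKM of the 9 factors in each of the 12 libraries on a log axis, coloured by group, with the range of pooled olfactory receptor genes as a grey band. Of the 9 factors, 8 lie far above the band in every library. Gfi1 runs from inside the band in NR ST-HSC sample 2 (0.00985 RPKM) up to 0.436 RPKM in control LT-HSC sample 3. Its library with 0 counts is not drawn.

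Mecom and Hlf were the factors that separated LT-HSCs from ST-HSCs. In control culture Mecom stood at 156, 139 and 142 CPM in the LT-HSC samples and at 81.3, 74.6 and 73.9 CPM in the ST-HSC samples. The lowest LT-HSC sample lay above the highest ST-HSC sample. The log2 difference was 0.93 with SE 0.10, a 1.9-fold higher level (edgeR quasi-likelihood test, Benjamini-Hochberg adjusted p = 0.000129 over all genes tested). Hlf stood at 224, 224 and 250 CPM in LT-HSCs against 140, 126 and 138 CPM in ST-HSCs, again without overlap. Its log2 difference was 0.79 with SE 0.09 (1.73-fold, edgeR adjusted p = 0.000103). Both calls held with each of the 6 libraries left out in turn. A gene was called where its adjusted p was under 0.05, and by that rule 2 of the 9 factors were called, both higher in LT-HSCs, against 5.01% of all genes tested (3.51% higher and 1.5% lower). The replicates of the same 2 factors were the only ones of the 9 that did not overlap, against 24.8% of all genes (12.4% in each direction).

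**Figure D2:**
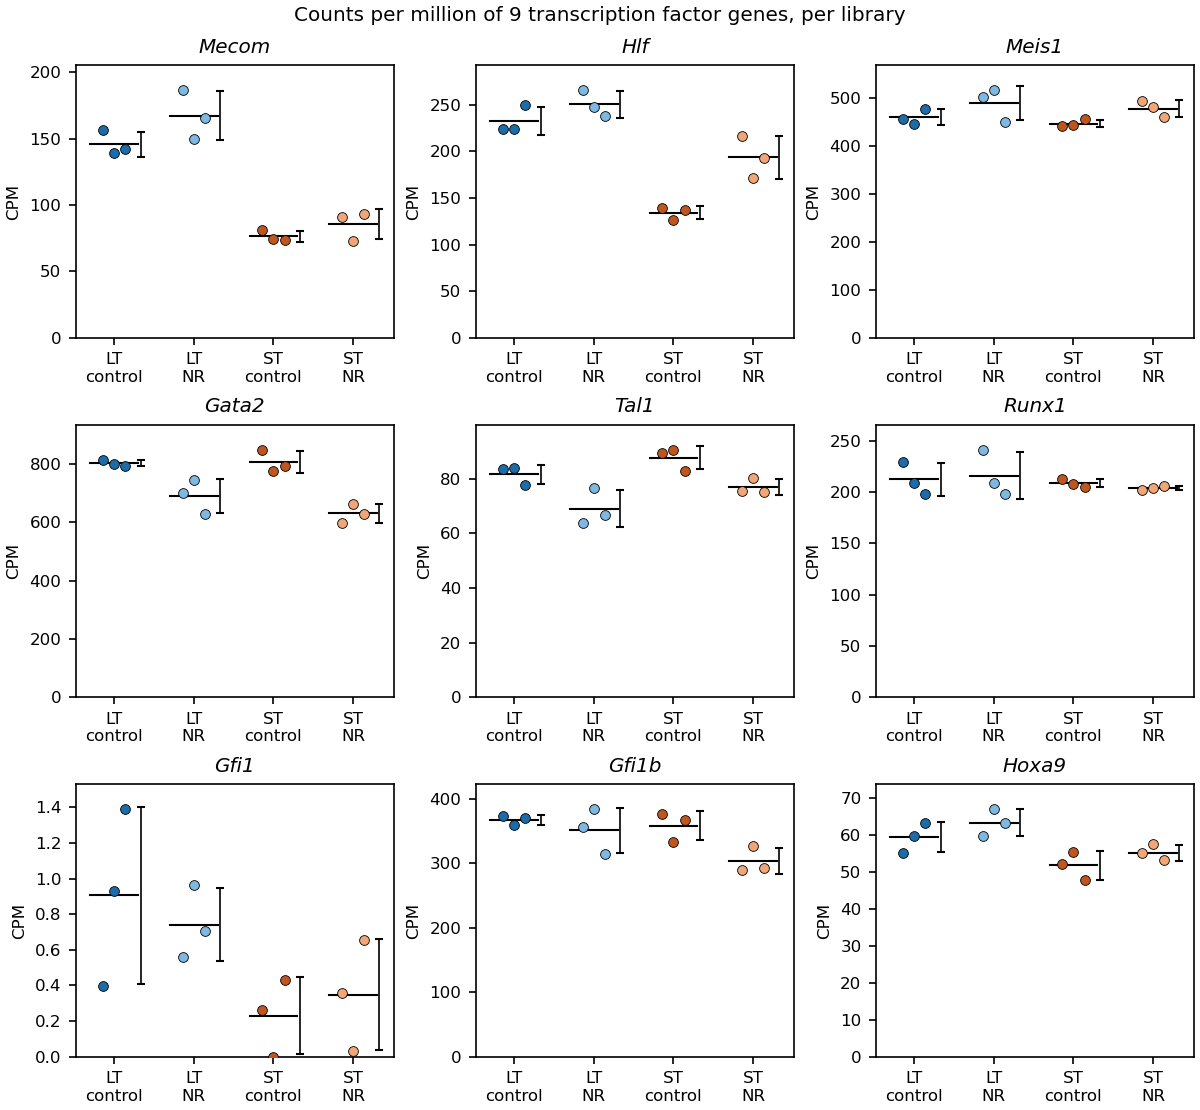
CPM of each factor in each library, by group. Points are samples 1, 2 and 3 from left to right, the line is the mean and the bar beside it the SD of 3 samples, and every axis starts at 0. Mecom and Hlf are higher in both LT groups, Hlf is higher in NR than in control ST-HSCs, and Gata2 is lower in both NR groups, without a call in LT-HSCs.

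The other factors were not called between the cell types in control culture. Hoxa9 came nearest, at 55.3, 59.9 and 63.3 CPM in LT-HSCs and 52.2, 55.4 and 47.8 CPM in ST-HSCs. The groups overlapped by a narrow margin, and the log2 difference was 0.20 with a 95% interval of 0.02 to 0.37 (edgeR adjusted p = 0.242). Gata2 had almost the same mean in both, 803 ± 9.61 CPM in LT-HSCs and 807 ± 38.4 CPM in ST-HSCs (SD, n = 3), with an interval for the log2 difference of -0.15 to 0.13. The intervals were -0.08 to 0.17 for Meis1, -0.14 to 0.19 for Runx1, -0.13 to 0.20 for Gfi1b and -0.27 to 0.06 for Tal1. The libraries thus leave room for differences of that size, and larger ones lie outside the intervals. For Gfi1 the interval ran from -0.43 to 4.31 and no difference was detectable at this depth.

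With NR, Mecom kept its distance between the cell types and the Hlf values lay closer together. Mecom stood at 187, 150 and 166 CPM in LT-HSCs and 90.8, 72.6 and 93.6 CPM in ST-HSCs, with no overlap. The log2 difference was 0.97 with SE 0.10 (edgeR adjusted p = 7.44e-05), and the call held with each of the 6 libraries left out. Hlf stood at 266, 248 and 238 CPM in LT-HSCs and 217, 171 and 193 CPM in ST-HSCs. The groups still did not overlap, but the lowest LT-HSC sample lay only a little above the highest ST-HSC sample. The log2 difference was 0.37 with SE 0.09 (1.29-fold, edgeR adjusted p = 0.0191). This call held in 2 of the 6 fits with a library left out. It ended without NR LT-HSC sample 1 (0.30, adjusted p = 0.189), without NR LT-HSC sample 2 (0.39, 0.101), without NR ST-HSC sample 2 (0.29, 0.0664) and without NR ST-HSC sample 3 (0.34, 0.116). The narrowing of the Hlf difference was not called when tested itself (edgeR adjusted p = 0.508). The call with NR also ended without the 2 libraries that had over 20% of reads in no gene (0.38, 0.108) and in a fit of only the groups compared (0.34, 0.13), and it held with the sample number as a block (0.38, edgeR adjusted p = 0.00333).

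Mecom and Hlf were thus the 2 factors of 9 called with NR as well, against 6.07% of all genes tested (3.8% higher and 2.27% lower). Samples did not overlap for 3 of the 9, all higher in LT-HSCs, against 17.6% of all genes (9.96% higher and 7.59% lower). The third was Hoxa9, at 59.7, 67.1 and 63.4 CPM in LT-HSCs and 55.2, 57.5 and 53.2 CPM in ST-HSCs. Its log2 difference of 0.20 had a 95% interval of 0.02 to 0.37 and was not called (edgeR adjusted p = 0.217). Gfi1b had a log2 difference of 0.21 (interval 0.05 to 0.38, adjusted p = 0.15) and was called in 3 of 10 other settings. Without NR LT-HSC sample 3 it was called as well (0.29, adjusted p = 0.0316). The intervals of Gata2 (-0.01 to 0.27), Tal1 (-0.32 to 0.01), Runx1 (-0.08 to 0.25) and Meis1 (-0.09 to 0.16) included 0.

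**Figure D3:**
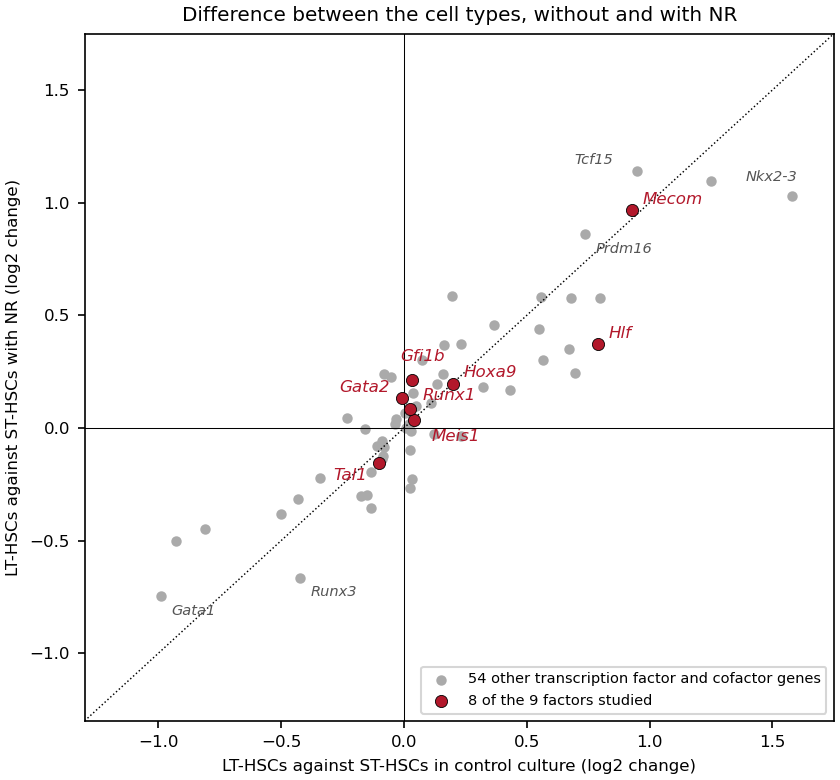
The log2 difference of LT-HSCs from ST-HSCs in control culture (horizontal) against the same difference with NR (vertical), for 8 of the 9 factors (red; Gfi1 is left out for its low counts) and 54 other transcription factor and cofactor genes with a mean of at least 5 CPM (grey). The dotted line marks equal differences: Mecom lies on it, at 0.93 and 0.97, and Hlf below it, at 0.79 and 0.37.

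In ST-HSCs, NR was followed by a higher level of Hlf and lower levels of Gata2 and Gfi1b. Hlf stood at 140, 126 and 138 CPM in control and 217, 171 and 193 CPM in NR ST-HSCs. Each NR sample lay above each control sample, and each lay below the LT-HSC samples of either culture. The log2 change was 0.53 with SE 0.09 (1.44-fold, edgeR adjusted p = 0.00106). The call held with each of the 6 libraries left out and in all 10 other settings, over which the change ran from 0.49 to 0.61. Gata2 stood at 850, 777 and 794 CPM in control and 599, 664 and 630 CPM with NR, without overlap. It fell by 0.36 on the log2 scale, SE 0.07, to 0.782 of its control level (edgeR adjusted p = 0.00233). That call held with each library left out and ended in 1 of 10 other settings, with no filter on low counts (-0.28, adjusted p = 0.0519).

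Gfi1b stood at 376, 332 and 367 CPM in control and 290, 326 and 293 CPM in NR ST-HSCs. NR sample 2 and control sample 2 lay next to each other, and the groups just failed to overlap. Gfi1b fell by 0.24 on the log2 scale, SE 0.08 (edgeR adjusted p = 0.047). This call was the least stable of the 3. It ended without control sample 1 (adjusted p = 0.173), control sample 3 (0.145), NR sample 1 (0.157) or NR sample 3 (0.344), and in 5 of 10 other settings, where the change ran down to -0.15. Of the 9 factors, 1 was called higher and 2 lower, against 16.9% of all genes tested (5.82% higher and 11.1% lower). The samples did not overlap for 2 higher and 3 lower factors, against 32.8% of all genes (11.9% higher and 20.9% lower).

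The remaining 2 factors without overlap were Meis1, higher, and Tal1, lower. Meis1 stood at 441, 445 and 456 CPM in control and 495, 481 and 460 CPM in NR ST-HSCs. The log2 change was 0.10 (95% interval -0.03 to 0.22, edgeR adjusted p = 0.339). Meis1 was called higher in 5 of 10 other settings, among them relative log expression factors (0.17) and DESeq2 (0.17), and its change was 0.20 without NR sample 3. Tal1 stood at 89.4, 90.7 and 83 CPM in control and 75.7, 80.2 and 75.1 CPM with NR. Its log2 change was -0.19 (interval -0.35 to -0.02, adjusted p = 0.127), and it was called in 0 of 10 other settings. Mecom (interval -0.06 to 0.38), Hoxa9 (-0.08 to 0.27) and Runx1 (-0.20 to 0.13) overlapped between control and NR. The sign of the Runx1 change depended on the scaling, -0.03 with TMM and 0.04 with relative log expression factors.

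**Figure D4:**
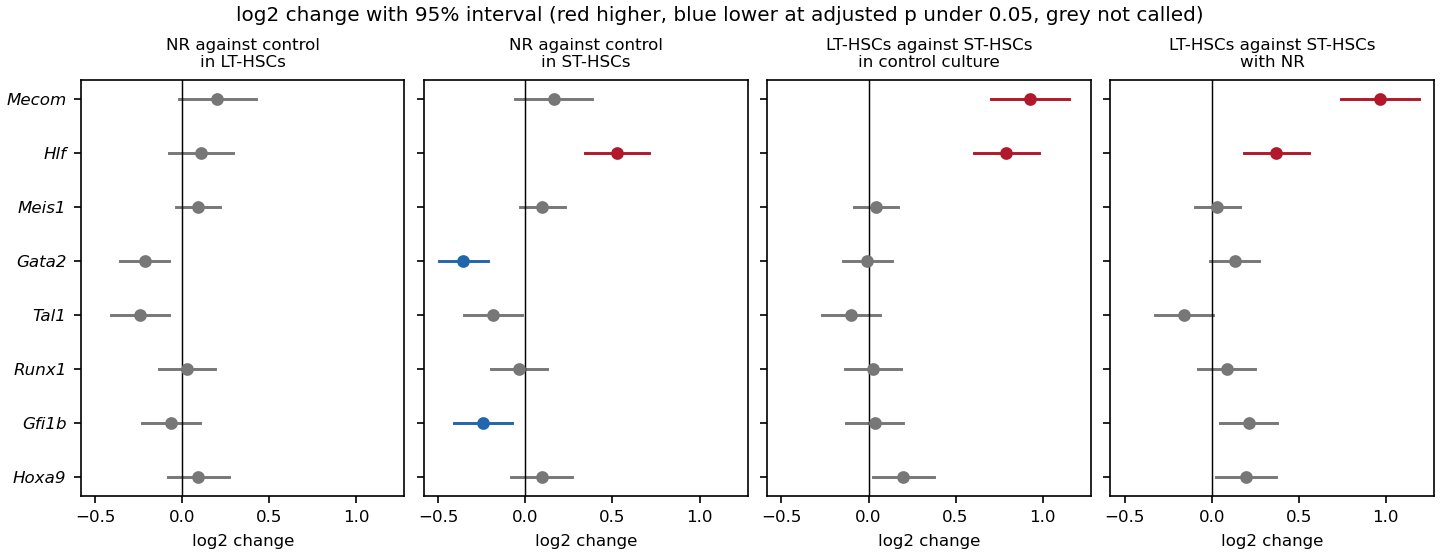
The log2 change of 8 factors (Gfi1 is left out for its low counts) in the 4 comparisons, with 95% intervals from the edgeR fit. Red marks called higher, blue called lower and grey not called. Hlf, Gata2 and Gfi1b are the 3 coloured factors for NR in ST-HSCs, none is coloured for NR in LT-HSCs, and Mecom and Hlf are coloured in both comparisons of the cell types.

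In LT-HSCs, 0 of the 9 factors were called for NR by edgeR, against 9.96% of all genes tested (2.38% higher and 7.58% lower). At an unadjusted p under 0.05 there were 2. DESeq2 called 3 (14.3% of all genes tested) and limma-voom 2 (11.8%). Gata2 stood at 814, 800 and 795 CPM in control and 700, 745 and 628 CPM in NR LT-HSCs, without overlap. Its log2 change was -0.22 with SE 0.07 (interval -0.36 to -0.08, edgeR adjusted p = 0.054). Tal1 stood at 83.6, 83.8 and 77.7 CPM in control and 63.8, 76.8 and 66.7 CPM with NR. It did not overlap either, and its log2 change was -0.24 with SE 0.08 (interval -0.41 to -0.07, adjusted p = 0.0695). These were the 2 of 9 factors without overlap, both lower, against 24.5% of all genes (8.57% higher and 15.9% lower).

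Samples of LT-HSCs with the same number deviated together. Sample 3 had the largest share of reads in no gene in control (15.99%) and in NR LT-HSCs (28.55%). The part of this share in the common deviations was not tested. The sample number was also fitted as a block. In that fit Gata2 (-0.22, edgeR adjusted p = 0.0317) and Tal1 (-0.24, adjusted p = 0.0305) were called lower in NR LT-HSCs. Gata2 was called in 7 and Tal1 in 3 of the 10 other settings. Each library left out in turn gave no call for either, with changes from -0.24 to -0.15 for Gata2 and from -0.29 to -0.19 for Tal1. Hlf, the factor that rose in ST-HSCs, stood at 224, 224 and 250 CPM in control and 266, 248 and 238 CPM in NR LT-HSCs, which overlapped (0.11, interval -0.08 to 0.29). The intervals were -0.02 to 0.42 for Mecom, -0.04 to 0.22 for Meis1, -0.13 to 0.19 for Runx1, -0.23 to 0.10 for Gfi1b and -0.08 to 0.27 for Hoxa9. Meis1 was called higher in 3 of 10 other settings.

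**Figure D5:**
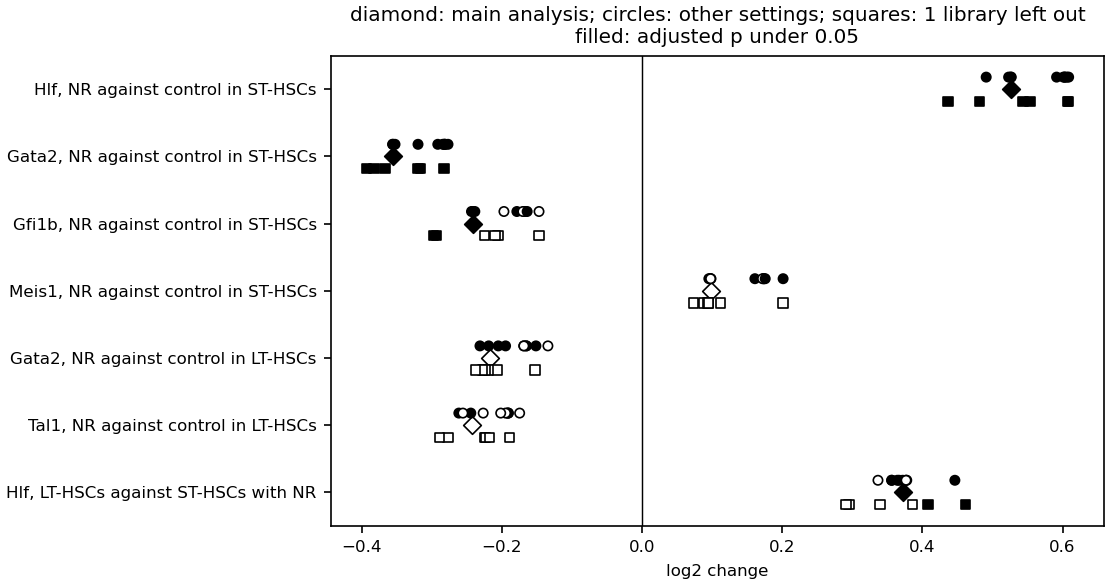
The log2 change of 7 results in the main analysis (diamond), in the 10 other settings (circles) and with 1 library left out (squares). Filled symbols have an adjusted p under 0.05. Hlf with NR in ST-HSCs is filled throughout, and Gfi1b in ST-HSCs, Gata2 and Tal1 in LT-HSCs and Hlf between the cell types with NR change between filled and open.

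Whether NR acted differently on the factors in the 2 cell types was tested as the difference of the NR effects, ST-HSCs minus LT-HSCs. By edgeR 0 of the 9 were called, against 0.0101% of all genes tested. DESeq2 and limma-voom also called 0 (0.686% and 0.0252% of all genes). At an unadjusted p under 0.05 there was 1, Hlf, whose change was larger in ST-HSCs by 0.42 on the log2 scale (interval 0.16 to 0.68, edgeR adjusted p = 0.508). Over the 9 other settings its adjusted p ran from 0.0619 to 0.559. The differences of Gata2 (-0.14, interval -0.34 to 0.06) and Gfi1b (-0.18, interval -0.41 to 0.06) included 0, so a call in ST-HSCs and none in LT-HSCs is not a shown difference between the cell types. The 2 cell types are read against separate controls here.

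Gfi1 had counts in 11 of 12 libraries. They were 13, 28 and 39 in control LT-HSCs, 19, 28 and 19 in NR LT-HSCs, 8, 0 and 14 in control ST-HSCs and 13, 1 and 19 in NR ST-HSCs. The count of 0 allows up to 3 counts, or 0.107 CPM. All groups overlapped their neighbours in the order of the means, and no fold is given. The highest libraries were LT-HSC ones, but the intervals of its log2 changes spanned several units in every comparison. For the other factors the groups fell in this order of mean CPM. Mecom and Hlf ran from NR LT-HSCs over control LT-HSCs and NR ST-HSCs to control ST-HSCs. For Mecom only the step between the cell types was free of overlap, while for Hlf the step between NR and control ST-HSCs was free of it as well. Gata2 ran from control ST-HSCs and control LT-HSCs, which overlapped, down to NR LT-HSCs and NR ST-HSCs, which overlapped each other. For Meis1, Tal1, Runx1, Gfi1b and Hoxa9 each group overlapped the next in order.

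Some of the 9 genes share exon bases with other annotated genes, and whether the counts kept the strands apart is not given in the sources used here. Meis1 shares 896 bases with the antisense gene Gm16140 (2.85 to 4.33 CPM) and 1029 bases with Gm37818 (1.73 to 3.94 CPM). Mecom shares 81 bases with Mecomos (0.138 to 1.33 CPM), Runx1 106 with Gm26626 (0.0332 to 0.38 CPM), Gfi1 101 with A430072P03Rik (0 to 0.38 CPM) and Hoxa9 85 with Mir196b (0 CPM). Hlf, Gata2, Tal1 and Gfi1b share none. Both Gfi1 and A430072P03Rik were low, so how reads in their shared bases were counted could change the Gfi1 values.

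Of 18 cofactors of these proteins, 2 rose and 4 fell with NR in ST-HSCs, with a median log2 change of -0.06 against -0.03 for all genes tested, of which 5.82% were called higher and 11.1% lower. Lmo2, the bridging partner of Tal1 and Gata2, rose by 0.42 with SE 0.07 (adjusted p = 0.00106), in each of the 6 fits with a library left out as well. The histone deacetylase genes Hdac2 (-0.30, adjusted p = 0.00905) and Hdac1 (-0.29, adjusted p = 0.014) fell, as did Tcf3, an E protein that pairs with Tal1 (-0.25, adjusted p = 0.0321). These 3 calls depended on single libraries: that of Hdac2 ended without NR ST-HSC sample 3 (adjusted p = 0.16), that of Hdac1 without that sample or control sample 3 (up to 0.202), and that of Tcf3 in 5 of 6 cases (up to 0.198). With each library left out, 1 to 2 of the 18 cofactors were called higher and 0 to 4 lower. In LT-HSCs 1 of 18 was called (9.96% of all genes), Hdac2 (-0.30, adjusted p = 0.0144), whose call ended without control LT-HSC sample 2 or NR LT-HSC sample 1 (up to 0.0654). Between the cell types 1 of 18 was called in control culture (5.01% of all genes), Lyl1, higher in LT-HSCs (0.43, adjusted p = 0.0215), and not in 5 of 6 fits with a library left out (up to 0.1). With NR edgeR called 0 of 18 (6.07% of all genes). The most abundant there were Lmo2 (-0.04, adjusted p = 0.99), Ctbp1 (0.24, 0.474) and Cbfb (-0.06, 0.79).

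Relatives and partners of Hoxa9 and Meis1 were read between the cell types. Of 23 Hox, Meis, Pbx and Pknox genes, 19 were tested, and 2 of 19 were higher in LT-HSCs in control culture and 4 with NR, against 3.51% and 3.8% of all genes. Hoxa10 (0.56, adjusted p = 0.00826, and 0.58, adjusted p = 0.00528) and Hoxb5 (1.03, adjusted p = 0.0059, and 1.33, adjusted p = 0.000881) were among both and held with each library left out. Meis3 and Hoxb6 were the others with NR. Both were under 5 CPM in the mean, as was Hoxb5 (4.35 CPM), which the stricter filter at a mean of 5 CPM leaves out. The call of Meis3 (1.39, adjusted p = 0.0252) ended in 4 of 6 cases (up to 0.105) and that of Hoxb6 (1.80, adjusted p = 0.0376) in all 6 (up to 0.124). Pknox1 (-0.34, adjusted p = 0.0128) and Pbx4 (-0.43, adjusted p = 0.0224) were lower in LT-HSCs in control culture (1.5% of all genes), and these calls ended in 4 of 6 cases (up to 0.0762) and in all 6 (up to 0.101).

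Among 22 further transcription factors with roles in HSCs, 21 were tested. In control culture 8 were higher and 1 lower in LT-HSCs, with a median log2 difference of 0.20 against -0.05 for all genes, of which 3.51% were called higher and 1.5% lower. They included Nkx2-3 (1.58, adjusted p = 5.87e-06), Tcf15 (0.95, adjusted p = 0.000204), Prdm16 (0.74, adjusted p = 0.000317), which is related to Mecom in sequence, and Nr4a1 (0.68, adjusted p = 0.00113). With NR 7 were higher and 1 lower (3.8% and 2.27% of all genes), again with Tcf15 (1.14, adjusted p = 4.04e-05), Prdm16 (0.86, adjusted p = 8.16e-05), Nkx2-3 (1.03, adjusted p = 0.000115) and Nr4a1 (0.58, adjusted p = 0.00311). Each of these 4 held in both comparisons with each library left out. With NR in ST-HSCs 4 of the 21 rose and 3 fell, against 5.82% and 11.1% of all genes. Nkx2-3 (0.90, adjusted p = 0.000284), Bcl6 (0.75, adjusted p = 0.000695) and Gata3 (0.57, adjusted p = 0.00206) rose, and Mycn (-0.54, adjusted p = 0.00794) fell, each with every library left out as well. Like Hlf, Nkx2-3 was thus higher in LT-HSCs and rose with NR in ST-HSCs. Nr4a1 rose there too (0.42, adjusted p = 0.0117), a call that held in 5 of 6 fits with a library left out. Tcf15 fell there (-0.41, adjusted p = 0.0268), a call that held in 2 of 6 such fits. Prdm16 was not called there (-0.21, adjusted p = 0.163). In LT-HSCs 2 rose with NR and 3 fell, against 2.38% and 7.58% of all genes. Bcl6 rose (0.62, adjusted p = 0.00443) with each library left out as well. Myb fell (-0.35, adjusted p = 0.0027), a call that ended without NR LT-HSC sample 2 (0.0611). Foxo1 rose (0.77, adjusted p = 0.0156), except without control LT-HSC sample 1 or NR LT-HSC sample 2 (up to 0.0754), and the fall of Dbp (-0.67, adjusted p = 0.0258), a PAR leucine zipper gene like Hlf, ended in 5 of 6 cases (up to 0.109).

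Lineage factors were read beside the 9 stem cell factors. Of 22 listed, 20 were tested. Gata1, the GATA factor of erythroid and megakaryocytic cells, was lower in LT-HSCs than in ST-HSCs in control culture (-0.99, adjusted p = 0.000204) and with NR (-0.75, adjusted p = 0.0016). It also fell with NR in LT-HSCs (-0.57, adjusted p = 0.00799) and in ST-HSCs (-0.82, adjusted p = 0.000424). Gata2 and Gata1 thus both fell with NR in ST-HSCs, but Gata2 did not separate the cell types and Gata1 did. Runx3, a relative of Runx1, fell with NR by 0.98 in LT-HSCs (adjusted p = 0.000672) and by 0.74 in ST-HSCs (adjusted p = 0.00149), and it was lower in LT-HSCs than in ST-HSCs with NR (-0.66, adjusted p = 0.00655). In ST-HSCs with NR 3 of 20 were higher, among them Spi1 (0.35, adjusted p = 0.00463), and 3 lower, among them Bcl11a (-0.47, adjusted p = 0.0039), against 5.82% and 11.1% of all genes. In control culture 1 was higher in LT-HSCs and 3 lower, against 3.51% and 1.5% of all genes. Cebpa, a myeloid factor, was lower (-2.29, adjusted p = 0.000438) and also with NR (-2.34, adjusted p = 0.000397). Its mean was 2.75 CPM, and the stricter filter leaves it out. All of these named calls held with each library left out, while those of Klf1 (-0.93, adjusted p = 0.0146) and Id2 (0.80, adjusted p = 0.0167) ended in 3 and 4 of 6 cases (up to 0.0753 and 0.0897).

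Markers of other cells were read beside the factors that moved. In bulk RNA, fewer cells of a type and less RNA per cell cannot be told apart. Summed over 7 megakaryocyte markers, CPM ran from 3010 to 3420 in control and 1830 to 2490 in NR LT-HSCs, and from 2960 to 3250 in control and 1700 to 2220 in NR ST-HSCs. Of the 7 markers, 0 were called higher with NR, while 3 were called lower for LT-HSCs and 5 for ST-HSCs, against 7.58% and 11.1% of all genes. Gata2, Gfi1b and Tal1 are also used in megakaryocytes, and the part of these markers in their values was not tested. Summed over 6 erythroid markers CPM ran from 91.9 to 98.3 in control LT-HSCs, 66.7 to 76 in NR LT-HSCs, 50.1 to 60.4 in control ST-HSCs and 33.3 to 39.8 in NR ST-HSCs, with no overlap between groups. Of the 4 tested, 1 was called lower with NR in each cell type, Epor, the erythropoietin receptor gene (-0.71, edgeR adjusted p = 0.00744, in LT-HSCs and -1.04, adjusted p = 0.000387, in ST-HSCs). Hba-a1, a hemoglobin gene, stood at 0 to 0.126 CPM, but Hbb-bt, another on this list, stood at 7.91 to 52.7 CPM. In control culture Hbb-bt was higher in LT-HSCs than in ST-HSCs (2.37, edgeR adjusted p = 2.55e-06). Klf1 was lower there (-0.93, edgeR adjusted p = 0.0146), so the order of the sums between the cell types does not hold for each marker. The part of these markers in the values of Gata2, Gfi1b and Tal1 was not tested either. Over 7 monocyte markers CPM ran from 275 to 290 in control and 366 to 441 in NR ST-HSCs, and 3 of the 7 were called higher (5.82% of all genes). Lyz2 alone held 261 to 406 CPM of these sums over all libraries, while Csf1r stood at 0.735 to 4.87 CPM. Mast cell and basophil markers summed to 3.96 to 26.5 CPM, granulocyte markers to 57.2 to 158 CPM and lymphoid markers to 0.213 to 3.63 CPM, and of these lists 0 genes were called for NR.

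Markers of HSCs moved beside Mecom and Hlf. Procr, Fgd5, Mllt3, Ctnnal1 and Hoxb5 were called higher in LT-HSCs in both cultures. With NR in ST-HSCs Procr (2.11, adjusted p = 0.000169) and Fgd5 (0.94, adjusted p = 0.00334) rose and Ctnnal1 (-0.47, adjusted p = 0.000853) fell. Hlf thus rose in ST-HSCs beside 2 of these 5 markers, and their part in its value was not tested.

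Across the 12 libraries 2 pairs of factors were the most alike, given as descriptions. The libraries share depth and handling, and the groups themselves set much of each value. Pearson's r of log2 CPM was 0.883 for Mecom and Hlf and 0.876 for Gata2 and Gfi1b, the highest of 28 pairs of the 8 factors other than Gfi1. After subtracting the group means, r was 0.585 for Mecom and Hlf and 0.933 for Gata2 and Gfi1b, so Gata2 and Gfi1b also deviated together within groups. The pairs were not set apart from other factors. Before the subtraction r was 0.74 for Hoxa9 and Hlf, 0.707 for Hoxa9 and Mecom and 0.647 for Gata2 and Tal1. After it these were -0.218, -0.593 and 0.537. Hlf and Tal1 had the lowest value before it, -0.725. Among 9924 genes with a mean of at least 5 CPM, the most alike to Mecom were Vdr (0.965) and Tnks1bp1 (0.965). For Hlf they were Nkx2-3 (0.971) and Hacd4 (0.97), with Mfsd2b the least alike (-0.956). Gata2 was most like Nup133 (0.982) and Arl2 (0.98) and least like Trim12c (-0.934). Gfi1b was most like Acap1 (0.974) and Bag6 (0.944) and least like Clic5 (-0.878). For Tal1 these were Riox1 (0.958), Zfp385a (0.958) and Oas3 (-0.926), and for Hoxa9 Prrc2b (0.959), Mafg (0.935) and Fem1c (-0.915). For Meis1 they were Cnpy3 (0.911), Herpud2 (0.908) and Hmga2 (-0.842), and for Runx1 Ranbp6 (0.847), March6 (0.832) and Setd1b (-0.863). The logit of the share of reads in no gene had r from -0.509 (Runx1) to -0.039 (Hoxa9) with the 8 factors, -0.35 with Gata2 and -0.429 with Gfi1b. After subtracting the group means r ran from -0.602 (Meis1) to 0.039 (Hoxa9), and was -0.505 for Gata2 and -0.521 for Gfi1b. The part of this share in their values was not tested beyond the fit that holds this share as a covariate. There Gata2 changed by -0.35 and Gfi1b by -0.24 with NR in ST-HSCs.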

How the data were processed

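The 12 libraries of cultured mouse HSCs were made, per the labels' protocols, from 2.5 ng RNA with a SMART-seq v4 kit followed by Nextera XT. The deposited table holds raw read counts for each Ensembl gene; 0 of its columns were not used. Per the submitters' processing notes, the authors used FastQC 0.11.2, STAR 2.5.0b and HTSeq 0.6.1. Their genome build, annotation and strand setting were not given in the sources used here. Symbols from GENCODE M21 matched 53274 of 53465 identifiers. Reads that HTSeq gave to no gene (8.69% to 28.5% in no feature) stayed out of library sizes and tests. Replicates differed by 5.46 to 32.3 chi-square units per degree of freedom, so no library was a duplicate of another in its group. Libraries of different groups were not compared in this way.

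Groups were taken from the labels. All 12 libraries were fitted with edgeR 4.0.16 (quasi-likelihood, two-sided, 4 group means, TMM factors, filterByExpr with a minimum count of 10 and total of 15; 8 residual degrees of freedom, biological coefficient of variation 0.402) in R 4.3.3. Benjamini-Hochberg adjustment ran over 19830 genes in each of 5 comparisons. Log2 CPM used a prior count of 2. The fit was also run on counts simulated independently for each library, and no result here rests on that run. Those counts held no deviations shared by same-numbered samples. The members and the gene lists were chosen with earlier results of these data known.

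Named genes are the 9 factors; from each list up to 4 called genes per comparison with the smallest p, or the 3 most abundant where none was called; the 2 genes most like and the 1 least like each factor, predicted genes left out, Gfi1 not included; and Cdkn1a. Nr4a1, Tcf15 and Prdm16, named between the cell types, were also read for NR in ST-HSCs. Markers of sorted, stem and other cells were listed apart. Results of some genes on these lists are not reported here.

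Same-numbered samples deviated together for NR in LT-HSCs (r 0.24 to 0.503) and between the cell types with NR (0.332 to 0.628), where every r was above 0.1, so the block is given beside those results where it bears on a call. The labels do not say what a number marks. Other settings were DESeq2 1.42.0, limma-voom (limma 3.58.1) with sample quality weights, upper-quartile or relative log expression factors, no filter, a filter at a mean of 5 CPM, the sample number as a block, the logit of the no-feature share as covariate, leaving out libraries above 20% in no feature, only the groups compared, and each library left out in turn.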

Additional observations from a re-analysis of the deposited data

How the results depend on the processing

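Over the 10 settings other than leaving out single libraries, 387 of 436 values of single factors kept their direction and their side of the threshold, 8 lost a call, 21 gained one and 20 changed sign. With 1 library left out these were 290, 8, 1 and 25 of 324. No value that changed sign was called, and apart from Gfi1 none exceeded 0.106 on the log2 scale. The cause of these changes was not tested. For NR in LT-HSCs the 0 calls became 2 with upper-quartile factors (11.8% of all genes), 3 with DESeq2 (14.3%) and 2 with limma-voom (11.8%). There were 2 with the stricter filter (27.3%), 2 with the replicate block (13%), 1 with the covariate (11.9%) and 1 with only the groups compared (9.09%). With a library left out there were 0 throughout (5.6% to 7.1% of all genes). For NR in ST-HSCs the 3 calls became 1 with no filter (5.98% of all genes), 2 with limma-voom (19.4%) and 4 with upper-quartile factors (18.5%). There were 4 with the stricter filter (38.5%) and 2 to 3 with a library left out (11.8% to 15.7%). With relative log expression factors, DESeq2 and without the libraries above 20% the 3 called were Hlf, Gata2 and Meis1 in place of Gfi1b. These settings called 16.2%, 20.4% and 14% of all genes. Between the cell types with NR the 2 calls became 1 without the libraries above 20% (4.83% of all genes) and 1 with only the groups compared (3.31%). By adding Gfi1b they became 3 with upper-quartile factors (8.24%), 3 with DESeq2 (10.4%) and 3 with the stricter filter (17.6%). With a library left out there were 1 to 3 (4.2% to 5.99% of all genes). The replicate block left 3 calls for NR in ST-HSCs (20.2% of all genes). It left 2 between the cell types in control culture (6.69%) and 2 with NR (8.28%), and 0 for the difference of the NR effects (0.0756%). In NR against control in ST-HSCs and between the cell types in control culture same-numbered samples did not all deviate together (lowest r -0.008 and -0.01), so they share only a number there.

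Another scaling moved the split of all calls. The share of higher genes among calls for NR was 23.9% with TMM and 37.4% with relative log expression factors in LT-HSCs, and 34.5% and 51.7% in ST-HSCs. All changes of sign lay near 0. For NR in LT-HSCs Gfi1b gave 0.00027 with the stricter filter and 0.028 without the libraries above 20%. For NR in ST-HSCs Runx1 gave 0.041 (relative log expression), 0.030 (upper quartile), 0.041 (DESeq2), 0.038 (no filter), 0.045 (stricter filter) and 0.033 (without the libraries above 20%), and Gfi1 -0.13 without those libraries. For the difference of the NR effects Meis1 gave -0.0012 with limma-voom and -0.010 with the covariate. In control culture Gata2 gave 0.00037 (relative log expression), 0.00038 (DESeq2), 0.011 (limma-voom), 0.023 (no filter), 0.00014 (stricter filter), 0.023 (without the libraries above 20%) and 0.025 (only the groups compared), and Runx1 gave -0.0042 with the covariate. With NR Meis1 gave -0.0031 with only the groups compared. With a library left out, changes of sign fell within these ranges: for NR in LT-HSCs Runx1 -0.062 to 0.087, Gfi1 -0.64 to 0.16 and Gfi1b -0.096 to 0.0099; for NR in ST-HSCs Runx1 -0.046 to 0.033 and Gfi1 -0.13 to 1.37; for the difference of effects Mecom -0.092 to 0.11, Meis1 -0.048 to 0.094, Runx1 -0.12 to 0.086 and Hoxa9 -0.053 to 0.085; in control culture Gata2 -0.034 to 0.032, Runx1 -0.035 to 0.071 and Gfi1b -0.017 to 0.071; with NR Meis1 -0.021 to 0.091 and Runx1 -0.030 to 0.14. Gfi1 had 0 to 39 counts per library, which limits its precision.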
